A study of Homo sapiens with 6 samples.

Results

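The genes examined were 10 that encode plasma lipid-binding proteins: APOA1, APOA2, APOC1, APOC2, APOC3, APOE, APOF, APOH, APOM and the phospholipid transfer protein gene PLTP. They were taken by name, through their Ensembl IDs, from a table of 57905 genes, and each name matched 1 ID. RNA had been sequenced from Huh7 cells, a human hepatoma line, 72 h after transfection. In 3 libraries the cells had received an siRNA against ASGR1, the gene of the major subunit of the hepatic asialoglycoprotein receptor (siASGR1), and in 3 libraries a scrambled siRNA (siControl). The libraries are numbered 1 to 3 in each group, and nothing in the labels says that they came from separate cultures. The p-values therefore set the difference between groups against how much these libraries vary within groups, and part of that variation may be technical. All cells came from 1 established line.

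Apolipoproteins keep lipid soluble in plasma. The exchangeable ones are small proteins built largely of amphipathic helices, which move between HDL and triglyceride-rich particles and act there as structural proteins, as ligands of receptors, or as activators and inhibitors of lipases and transfer proteins. The liver makes most of them. PLTP moves phospholipids from triglyceride-rich particles to HDL and remodels HDL particles.

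Levels are the authors' FPKM (fragments scaled to exon length and to the total of the library). The values fit the merged length of all annotated exons of a gene, which can exceed that of the transcript expressed. The order of genes, their shares and the ratios between them therefore depend on the annotation. The levels rested on 18440000 to 19281000 fragments in the siASGR1 libraries and on 16353000 to 19256000 fragments in the siControl libraries, as rebuilt from the steps between low values. ASGR1 itself had 4.60 to 4.82 FPKM in siASGR1 and 16.90 to 17.56 FPKM in siControl in the table used here, whereas the single-library files give 14.04 to 15.81 FPKM for siASGR1. It was the only gene that differed between the sources, so all values of the 10 genes were the same in both. Hepatocyte markers were present in both groups (ALB 487.8 ± 8.83 FPKM in siASGR1 and 328.8 ± 10.3 FPKM in siControl, SD, n = 3 each). Of the 11 tested, 10 were called higher in siASGR1, beside 20.9% of all tested genes, with a median log2 fold change of 1.07. In bulk RNA, fewer cells of a type and less RNA per cell cannot be told apart. The 10 fibroblast and stellate cell markers summed to 275.7 to 296.8 FPKM in siASGR1 and 267.8 to 295.7 FPKM in siControl. Most of that sum was FN1, which hepatocytes also make, at 258.3 ± 13.0 FPKM in siASGR1 and 230.8 ± 11.3 FPKM in siControl (SD, n = 3 each). The 8 markers other than VIM and FN1 summed to 0.68 to 0.95 FPKM in siASGR1 and 6.12 to 7.44 FPKM in siControl. Macrophage markers summed to 1.80 to 2.06 FPKM in siASGR1 and 1.45 to 2.32 FPKM in siControl, with C1QA, C1QB and C1QC at 0 throughout, and endothelial markers to 0.25 to 0.38 FPKM and 0.28 to 0.42 FPKM, with KDR and TEK at 0. The part of these markers in the results was not tested.

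All 9 genes with a level high enough to be tested were higher in siASGR1, and for all 9 the lowest siASGR1 library lay above the highest siControl library. Tests were made with limma on log2(FPKM + 1), two-sided, across the 13568 genes with at least 1 FPKM in at least 3 libraries, with Benjamini-Hochberg adjustment over all of them and calls at an adjusted p under 0.05. In that fit 20.9% of genes were called higher and 40.4% lower, and groups did not overlap in the higher direction for 23.5%. As deposited, 2839 genes were called higher and 5480 lower. Median-of-ratios scaling moved the median of all genes up by 0.12 (log2) and gave 3987 (29.4%) higher and 3994 lower, with the same 9 genes called higher. The median log2 fold change over the 9 genes was 1.06, against -0.13 over all tested genes and 1.07 over the 11 tested hepatocyte markers. Of the 9, 6 had a mean FPKM at least 2-fold that of siControl, a size that 3.6% of tested genes reached. The 10th gene, APOF, did not pass the filter on low values and is given apart.

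**Figure D1:**
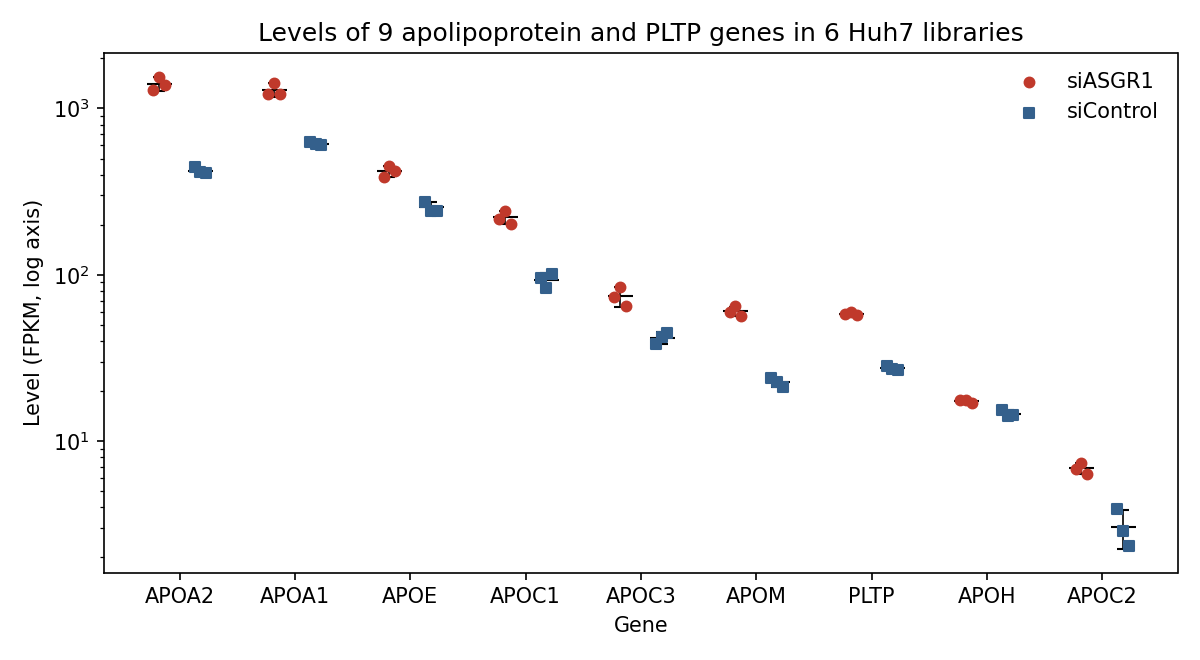
FPKM on a log axis for the 9 tested genes, ordered by their siASGR1 mean, with 1 point per library (circles, siASGR1; squares, siControl); bars mark the mean ± SD of 3 libraries. In each gene the siASGR1 points lie above the siControl points, with the narrowest gap in APOH.

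The stretches before the start sites are shown for 3 genes, because they span the range of the response: APOA2 had the largest log2 fold change of the 9, APOH the smallest, and PLTP was the gene with the smallest p. Each is the 250 bases upstream of a RefSeq start site (GRCh38.p14), 5′ to 3′ on the gene's strand, and capitals mark matches to the motifs listed after them.
APOA2, chr1:161223629-161223878, minus strand: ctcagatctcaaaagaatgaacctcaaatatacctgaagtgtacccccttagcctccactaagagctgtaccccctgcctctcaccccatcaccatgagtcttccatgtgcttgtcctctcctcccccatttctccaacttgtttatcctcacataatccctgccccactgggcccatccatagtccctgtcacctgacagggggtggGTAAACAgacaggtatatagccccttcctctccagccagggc
APOH, chr17:66229416-66229665, minus strand: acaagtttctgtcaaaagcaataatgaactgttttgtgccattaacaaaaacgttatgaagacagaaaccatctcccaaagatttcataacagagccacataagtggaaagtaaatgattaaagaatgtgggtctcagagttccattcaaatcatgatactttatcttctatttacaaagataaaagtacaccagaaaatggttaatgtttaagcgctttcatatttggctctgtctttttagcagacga
PLTP, chr20:45912156-45912405, minus strand: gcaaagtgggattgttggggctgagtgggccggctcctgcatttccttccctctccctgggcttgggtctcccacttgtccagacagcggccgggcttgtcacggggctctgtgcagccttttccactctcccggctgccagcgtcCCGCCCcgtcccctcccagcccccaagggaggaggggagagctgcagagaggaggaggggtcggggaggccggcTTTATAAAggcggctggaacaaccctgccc

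The motifs searched, on both strands, were TATAAA (the TATA box core), AGGTCA and GGGTCA (core sites of nuclear receptors), direct repeats of AGGTCA spaced by 1 and by 4 bases (the kinds that HNF4 and LXR bind), CAAAGTCC (an HNF4 core), GTAAACA (a forkhead core) and GGGCGG (a GC box core). APOA2 held GTAAACA, which 2.98% of all 35116 windows of this length hold, 42 to 36 bases before its start. PLTP held TATAAA, on both strands as the overlapping run TTTATAAA, 30 to 23 bases before its start, a motif present in 10.7% of windows, and GGGCGG on the strand opposite to the one printed, where it reads CCGCCC, present in 42.6%. APOH held none of the 8; its RefSeq start lies within the longer span that GENCODE gives the gene. Windows were found for 7 of the 10 genes; APOA1, APOC3 and APOF have none in the table used. Among the windows not printed, GGGTCA (12.1% of windows) was in those of APOC1 and APOM. That of APOC2 held the TATA box core, AGGTCA (12.1%) and the HNF4 core (1.02%), and GC box cores were in those of APOC1, APOE and a further PLTP start. All 250 bases of the APOC1, APOC2 and APOM windows lie in exons that GENCODE lists, so these matches are not in sequence outside exons. Of the APOE window with GC box cores 42 bases lie in such exons, and of the further PLTP window 93. Neither direct repeat was in any window of the genes, nor in more than 0.0171% of all windows. A match describes letters and is not evidence of binding.

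APOA1 and APOA2 are the main structural proteins of HDL, and APOA1 also accepts cholesterol exported by ABCA1 and activates LCAT. APOA1 (ENSG00000118137; GRCh38 chromosome 11, 116835751 to 116837950, minus strand) had 1229, 1431 and 1214 FPKM in siASGR1 libraries 1, 2 and 3, against 625.8, 613.0 and 600.7 FPKM in siControl. The groups did not overlap: the lowest siASGR1 library was 1.94-fold the highest siControl library. Its mean was 1291 ± 121 FPKM in siASGR1 and 613.2 ± 12.5 FPKM in siControl (SD, n = 3 each), a 2.11-fold rise with a log2 fold change of 1.07 (SE 0.07; limma adjusted p = 2.12e-05). The library kit named in the labels does not mark strand, so reads in exon bases shared with a gene on the opposite strand cannot be told apart. APOA1 shares 123 such bases with APOA1-AS, which averaged 0.88 FPKM in siASGR1 and 1.16 FPKM in siControl.

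APOA2 (ENSG00000158874; GRCh38 chromosome 1, 161222292 to 161223631, minus strand), the second main protein of HDL, changed the most. It had 1291, 1553 and 1387 FPKM in siASGR1, against 441.8, 415.7 and 411.3 FPKM in siControl, so that every siASGR1 library was at least 2.92-fold above every siControl library. The rise in mean FPKM was 3.33-fold, with a log2 fold change of 1.73 (SE 0.07; limma adjusted p = 4.32e-06), larger than in 99.8% of tested genes. No annotated gene overlaps it. APOA4, a further apolipoprotein of this class that was not among the 10, rose to 5.49 ± 0.51 FPKM in siASGR1, against 2.35 ± 0.13 FPKM in siControl (2.33-fold; SD, n = 3 each).

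The C apolipoproteins act on the lipolysis of triglyceride-rich particles, and all 3 rose. APOC3, an inhibitor of lipoprotein lipase and of particle uptake (ENSG00000110245; GRCh38 chromosome 11, 116829706 to 116833072, plus strand), had 73.3, 84.4 and 64.6 FPKM in siASGR1, against 38.3, 42.3 and 45.0 FPKM in siControl. The groups were apart, although APOC3 had the widest spread of the 9 among siASGR1 libraries (coefficient of variation 13.3%). Its rise was 1.77-fold, with a log2 fold change of 0.80 (SE 0.10; limma adjusted p = 0.000403).

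APOC1, which inhibits the cholesteryl ester transfer protein CETP (ENSG00000130208; GRCh38 chromosome 19, 44914247 to 44919349, plus strand), had 217.7, 243.3 and 203.1 FPKM in siASGR1, against 95.9, 83.5 and 100.5 FPKM in siControl. Every siASGR1 library was at least 2.02-fold above every siControl library. Its rise was 2.37-fold, with a log2 fold change of 1.24 (SE 0.09; limma adjusted p = 3.20e-05). On the same strand, 532 of its 1231 exon bases are shared with AC011481.3, for which no value is used here, and how reads in shared exons were counted is not given, so the level of APOC1 is uncertain. Its near-identical copy APOC1P1 lies in the same cluster, and how reads that fit both were counted is not given; APOC1P1 stayed at or under 0.52 FPKM in all 6 libraries.

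APOC2, the activator that lipoprotein lipase requires (ENSG00000234906; GRCh38 chromosome 19, 44945982 to 44949565, plus strand), was far lower. It had 6.84, 7.38 and 6.33 FPKM in siASGR1, against 3.90, 2.90 and 2.33 FPKM in siControl, which is 161 to 179 rebuilt fragments in siASGR1 and 50 to 99 in siControl. The siControl libraries had a coefficient of variation of 26.1%, the widest of the 9 genes in either group, yet the groups did not overlap. The rise was 2.25-fold, with a log2 fold change of 0.97 (SE 0.14; limma adjusted p = 0.000705). Of its 1316 exon bases, 729 are shared with the readthrough gene APOC4-APOC2, listed at 0 in all 6 libraries, and how reads in shared exons were counted is not given, so the level of APOC2 is uncertain.

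APOE, the ligand through which the LDL receptor and LRP1 take up remnant particles (ENSG00000130203; GRCh38 chromosome 19, 44905754 to 44909393, plus strand), had 384.7, 450.4 and 422.7 FPKM in siASGR1, against 275.0, 243.2 and 243.4 FPKM in siControl. The lowest siASGR1 library was 1.40-fold the highest siControl library. Its rise was 1.65-fold, with a log2 fold change of 0.72 (SE 0.07; limma adjusted p = 0.000153). It shares 19 exon bases with AC011481.3.

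APOM and PLTP belong to HDL metabolism without being helical apolipoproteins. APOM, a lipocalin that carries sphingosine 1-phosphate on HDL (ENSG00000204444; GRCh38 chromosome 6, 31652416 to 31658210, plus strand), had 59.9, 64.7 and 56.9 FPKM in siASGR1, against 24.0, 22.8 and 21.2 FPKM in siControl. Its rise was 2.67-fold, the second largest of the 9, with a log2 fold change of 1.38 (SE 0.06; limma adjusted p = 6.38e-06). The neighbour BAG6, which shares 136 exon bases with APOM on the opposite strand, differed by 0.22 (log2) and averaged 57.7 FPKM in siASGR1 and 49.3 FPKM in siControl.

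PLTP (ENSG00000100979; GRCh38 chromosome 20, 45898621 to 45912155, minus strand) had 57.8, 59.4 and 57.0 FPKM in siASGR1, against 28.2, 27.3 and 26.7 FPKM in siControl. Its siASGR1 libraries lay closest together of the 9 genes, with a coefficient of variation of 2.09%. In siControl it was 2.67%, and only APOA1 had a smaller one (2.05%). The adjusted p of PLTP was the smallest of the 9 (log2 fold change 1.06, SE 0.04, limma adjusted p = 3.10e-06). The rise in mean FPKM was 2.12-fold. CTSA, which shares 200 exon bases with PLTP on the opposite strand, averaged 36.3 FPKM in siASGR1 and 32.9 FPKM in siControl (1.10-fold).

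APOH, a phospholipid-binding plasma protein and the main target of antiphospholipid antibodies (ENSG00000091583; GRCh38 chromosome 17, 66212033 to 66256525, minus strand), changed least. It had 17.7, 17.8 and 17.0 FPKM in siASGR1, against 15.4, 14.1 and 14.4 FPKM in siControl. The groups were apart by 1.11-fold at their nearest libraries, and the rise in mean FPKM was 1.20-fold (log2 fold change 0.24, SE 0.05; limma adjusted p = 0.00341). APOF, a regulator of CETP (ENSG00000175336; GRCh38 chromosome 12, 56360569 to 56362823, minus strand), was nearly undetected. It was listed at 0.03, 0 and 0 FPKM in siASGR1 and at 0.06, 0.07 and 0.11 FPKM in siControl, where the limit that 0 fragments allows (3 fragments, counting error only) is 0.0907 to 0.0949 FPKM in siASGR1 and 0.0908 to 0.107 FPKM in siControl. No fold is given at this depth. With no filter on low values its log2 difference was -0.10 (limma adjusted p = 0.0736).

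**Figure D2:**
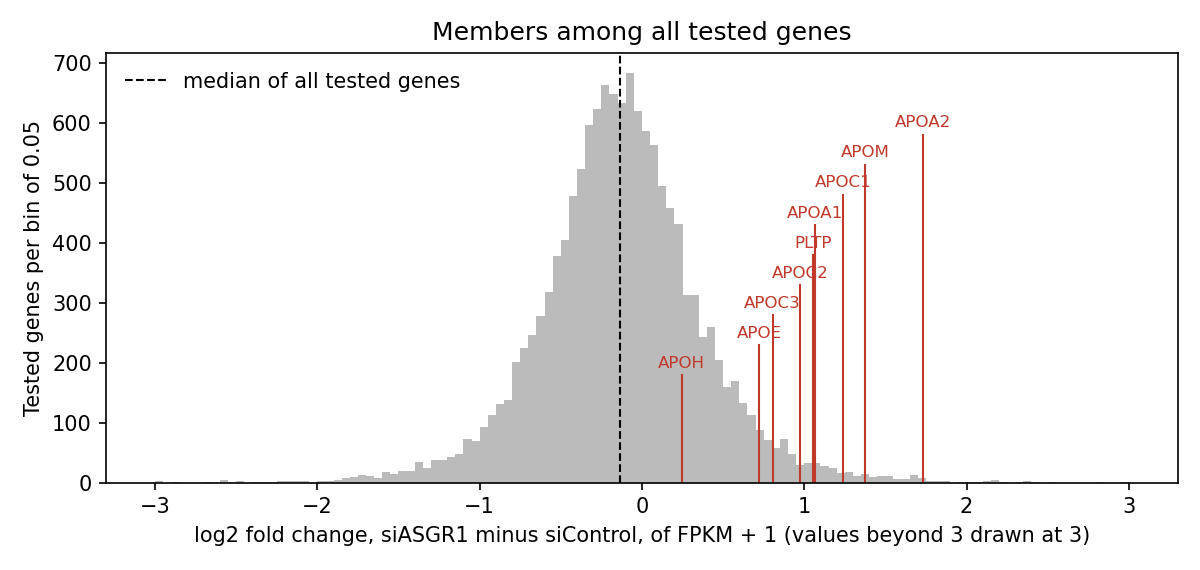
Distribution of log2 fold changes (siASGR1 minus siControl, of FPKM + 1) over the 13568 tested genes in bins of 0.05, with the 9 genes as red lines and the median of all genes, -0.13, as a dashed line. APOH lies within the bulk at 0.24, and the other 8 lie between 0.72 and 1.73.

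**Figure D3:**
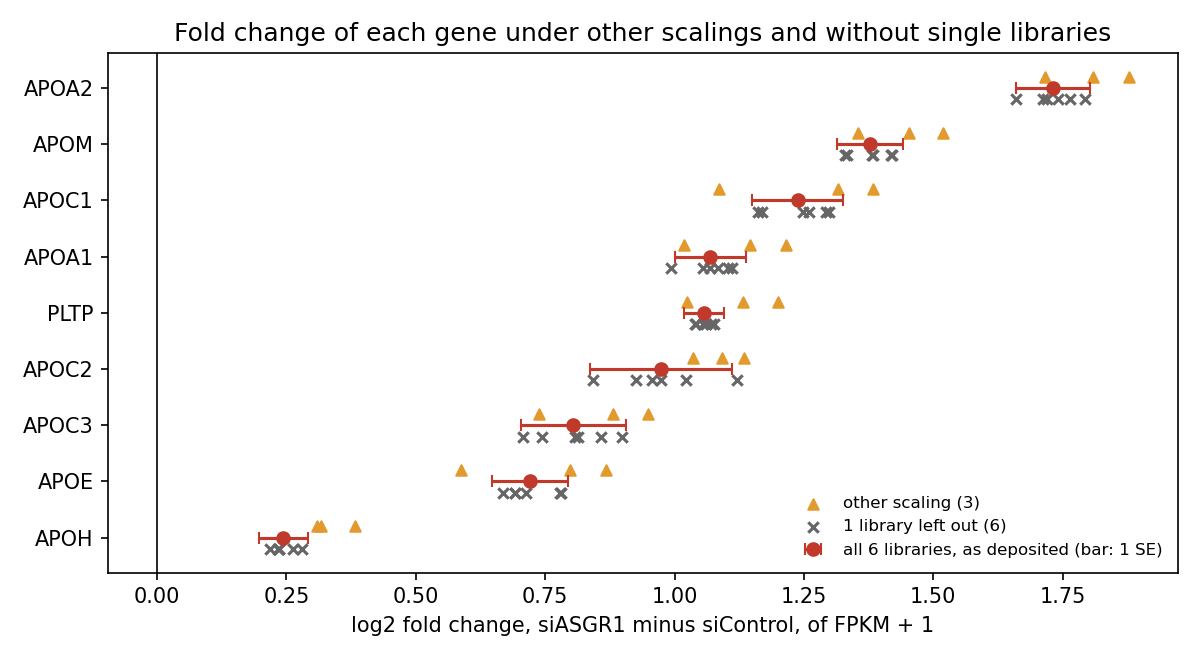
Log2 fold change of each of the 9 genes with all 6 libraries (circle, bar 1 SE), under 3 other scalings (triangles) and with 1 library left out (crosses). Every point lies to the right of 0, and the lowest point of any gene is 0.22, for APOH.

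The order of the genes by level changed between groups at 2 places. In siControl, APOA1 was above APOA2 in every library. In siASGR1, APOA2 was above APOA1 in every library (means 1410.2 and 1291 FPKM), although their ranges across libraries overlapped. PLTP was above APOM in siControl (26.7 FPKM at its lowest, against 24.0 FPKM at APOM's highest), and in siASGR1 the ranges of APOM and PLTP overlapped, as did those of APOC3 and APOM. All other neighbours in the order were apart in both groups.

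Summed over these 9 genes, the level was 3338, 3911 and 3429 FPKM in siASGR1, against 1548, 1465 and 1466 FPKM in siControl. The sum was 1.08% to 1.23% of all FPKM in siASGR1 and 0.465% to 0.491% in siControl, 2.39-fold higher on average. Shares within this sum do not depend on how libraries are scaled to each other. They were compared with an exact two-sided permutation test over libraries, whose smallest possible p with 3 against 3 libraries is 0.1, so no share can pass 0.05.

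APOA2 made up 38.7% to 40.4% of the sum in siASGR1, against 28.1% to 28.5% in siControl, a gain of 11.3 percentage points. APOE had 11.5% to 12.3% in siASGR1, against 16.6% to 17.8% in siControl, and APOA1 35.4% to 36.8%, against 40.4% to 41.9%. These shares did not overlap between groups, nor did those of APOM (1.70% ± 0.08 in siASGR1 and 1.52% ± 0.06 in siControl, SD, n = 3 each). APOC3 (2.08% and 2.81% on average), PLTP (1.64% and 1.83%) and APOH (0.494% and 0.981%) had lower shares in siASGR1, also without overlap. All 7 reached that smallest permutation p of 0.1 (0.129 adjusted over 9 shares). Shares are parts of a whole, so the gain of APOA2 by itself lowers the shares of the others. A lower share is not a lower level, since the FPKM of all 9 genes rose. Shares without APOA2 in the sum were not computed. The share of APOC1 was 6.22% ± 0.30 in siASGR1 and 6.25% ± 0.58 in siControl (exact permutation p = 1), and that of APOC2 was 0.193% ± 0.011 and 0.203% ± 0.047 (SD, n = 3 each; exact permutation p = 0.8).

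The ratio of APOA1 to APOA2 was 0.952, 0.921 and 0.876 in siASGR1, against 1.42, 1.47 and 1.46 in siControl, a log2 difference of -0.66. Within the chromosome 11 cluster, APOC3 to APOA1 was 0.0532 to 0.0597 in siASGR1 and 0.0612 to 0.0749 in siControl, a difference of -0.26. Within the chromosome 19 cluster, APOC1 to APOE was 0.480 to 0.566 in siASGR1 and 0.343 to 0.413 in siControl, a difference of 0.52. PLTP to APOE differed by 0.34 and APOH to APOA2 by -1.49. For these 5 of 6 ratios the groups did not overlap, each with the smallest exact permutation p, 0.1 (0.12 adjusted over 6 ratios). APOC2 to APOC1 averaged 0.0310 in siASGR1 and 0.0329 in siControl, with overlap. The log2 differences and their tests used FPKM + 1, whereas the ratios use FPKM as listed. For APOC2 to APOC1 the log2 difference was -0.26 (exact permutation p = 0.4). Most of it comes from the added 1, because the level of APOC2 is low.

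**Figure D4:**
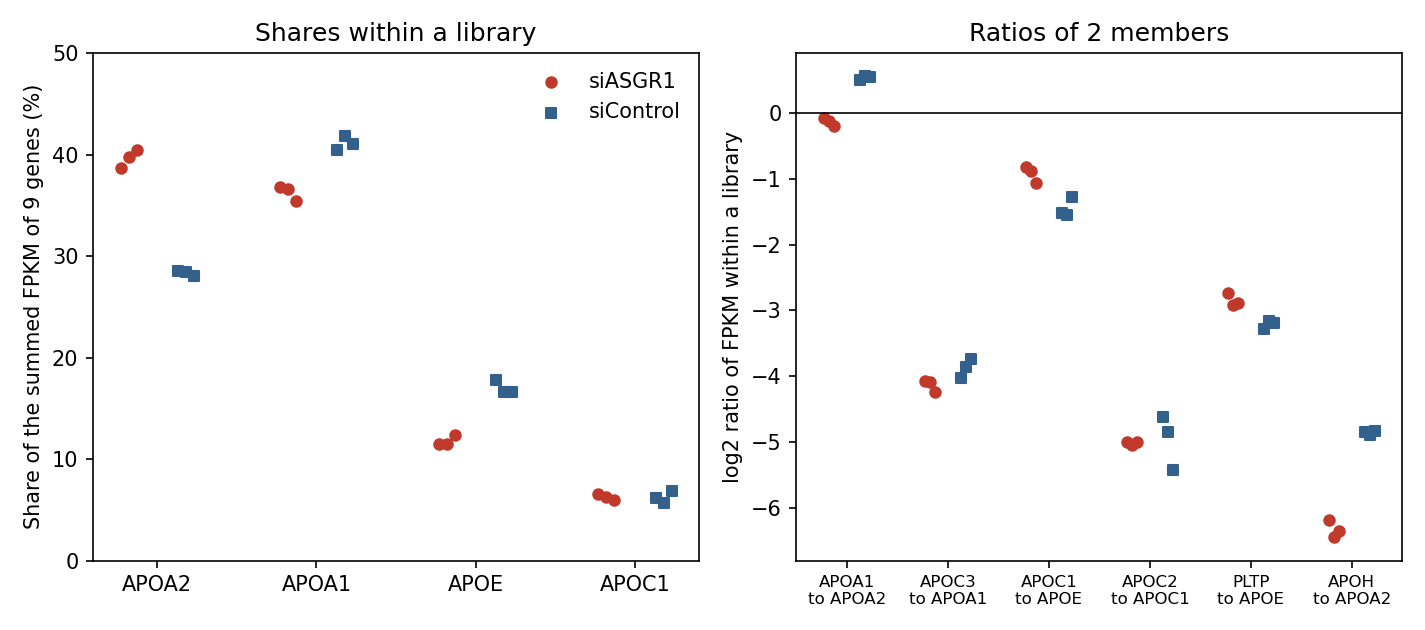
Left, share of the summed FPKM of the 9 genes taken by the 4 most abundant in each library; right, log2 ratio of FPKM of 2 genes within a library (circles, siASGR1; squares, siControl). APOA2 gained share, APOA1 and APOE lost it, and the APOA1 to APOA2 ratio lay below 1 (log2 below 0) in siASGR1 and above it in siControl.

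Among the siASGR1 libraries, replicate 2 had the highest value for all 9 genes, which held for 34.2% of all tested genes. Its log2 distance from the mean of replicates 1 and 3 had a median of 0.16 over the 9 genes, 0.05 over the tested genes with exon lengths up to 2416 bases and -0.07 over those with exon lengths from 6938 bases. Without that library the 9 genes were still called higher, with a median of 0.99. The 10 genes have exon lengths of 866 to 2541 bases. Of the 2129 tested genes in that range, 24.4% were called higher, and their median log2 fold change was -0.09.

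Genes that form, remodel and take up HDL were mostly higher: of 10 tested, 8 rose and 1 fell, beside the 20.9% and 40.4% of all tested genes. Their median log2 fold change was 0.72, against -0.13 over all tested genes. The 8 included AMN and ATP5F1B, which are known mainly for other roles, and SCARB1, which is counted again among the receptors below. ABCA1, which loads APOA1 with cholesterol, had 17.5 to 20.6 FPKM in siASGR1 and 3.37 to 3.66 FPKM in siControl (5.48-fold). LIPC, hepatic lipase, rose 1.66-fold, and NAXE, whose product binds APOA1, rose 1.82-fold. The gene that fell, named after its values were seen, was LCAT, the enzyme that esterifies cholesterol on HDL: 3.02 ± 0.12 FPKM in siASGR1 and 5.04 ± 1.06 FPKM in siControl (limma adjusted p = 0.00509; SD, n = 3 each). LPL, the enzyme on which the C apolipoproteins act, was listed at 0 in all 6 libraries.

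Of 10 tested genes of other apolipoproteins and HDL-borne proteins, 3 rose and 4 fell, beside the 20.9% and 40.4% of all tested genes. Their median log2 fold change was 0.07. APOB, the structural protein of VLDL, rose 7.30-fold, and PON2, a paraoxonase, rose 1.56-fold. APOL2 fell to 4.38 ± 0.31 FPKM in siASGR1, against 7.34 ± 0.20 FPKM in siControl. The HDL-borne paraoxonase PON1 fell as well (1.71 ± 0.17 FPKM in siASGR1 and 2.93 ± 0.25 FPKM in siControl). CLU was 204.2 ± 5.15 FPKM in siASGR1 and 227.9 ± 9.71 FPKM in siControl (SD, n = 3 each), a fall that was not called with median-of-ratios scaling (limma adjusted p = 0.865), nor without siASGR1 replicate 1 or 3 or siControl replicate 1 or 2 (limma adjusted p 0.0503 to 0.0637). LCAT, described above, was the other gene that fell. PON1 and CLU were named after their values were seen. Of the lipid transfer family to which PLTP belongs, CETP and BPI stayed at or under 0.11 FPKM in all libraries. LBP was not called, at 14.1 ± 1.58 FPKM in siASGR1 and 13.4 ± 0.59 FPKM in siControl (limma adjusted p = 0.542, SD, n = 3 each). MTTP, which lipidates APOB and belongs to another family of lipid transfer proteins, rose 1.39-fold.

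Among receptors that bind apolipoproteins, 6 of 12 tested rose and 3 fell, beside the 20.9% higher and 40.4% lower of all tested genes. Median-of-ratios scaling gave 7 and 2, beside 29.4% higher of all tested genes. The HDL receptor gene SCARB1 had 51.0 to 54.5 FPKM in siASGR1 and 28.4 to 33.2 FPKM in siControl (1.67-fold). SDC1, a heparan sulfate proteoglycan that binds remnants, rose 1.38-fold and the receptor chaperone gene LRPAP1 1.39-fold. LRP5 had 68.6 to 71.8 FPKM in siASGR1 and 40.8 to 50.2 FPKM in siControl. The 3 that fell, named after their values were seen, were LRP2, VLDLR and SORT1, with means of 2.89, 1.80 and 25.1 FPKM in siASGR1, against 3.76, 3.23 and 27.6 FPKM in siControl. The fall of SORT1 was the smallest (log2 fold change -0.13, limma adjusted p = 0.0415). Its size is near the 0.12 by which median-of-ratios scaling moved the median of all genes.

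Of 30 tested regulators of apolipoprotein genes, 7 rose and 9 fell, beside the 20.9% and 40.4% of all tested genes; median-of-ratios scaling gave 12 and 8. The gene HNF4A, a nuclear receptor that drives many apolipoprotein genes in liver, had 67.8, 68.2 and 67.9 FPKM in siASGR1, against 30.1, 31.7 and 27.9 FPKM in siControl (log2 fold change 1.16, SE 0.05). NR1H3, which encodes the oxysterol receptor LXRα, had 14.7 to 15.3 FPKM in siASGR1 and 6.05 to 6.84 FPKM in siControl. The bile acid receptor gene NR1H4 rose 1.68-fold. FOXA2, a forkhead factor of hepatocytes, fell to 21.7 ± 0.28 FPKM in siASGR1, against 39.3 ± 0.28 FPKM in siControl (SD, n = 3 each). Whether any of these bears on the 9 genes was not tested.

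**Figure D5:**
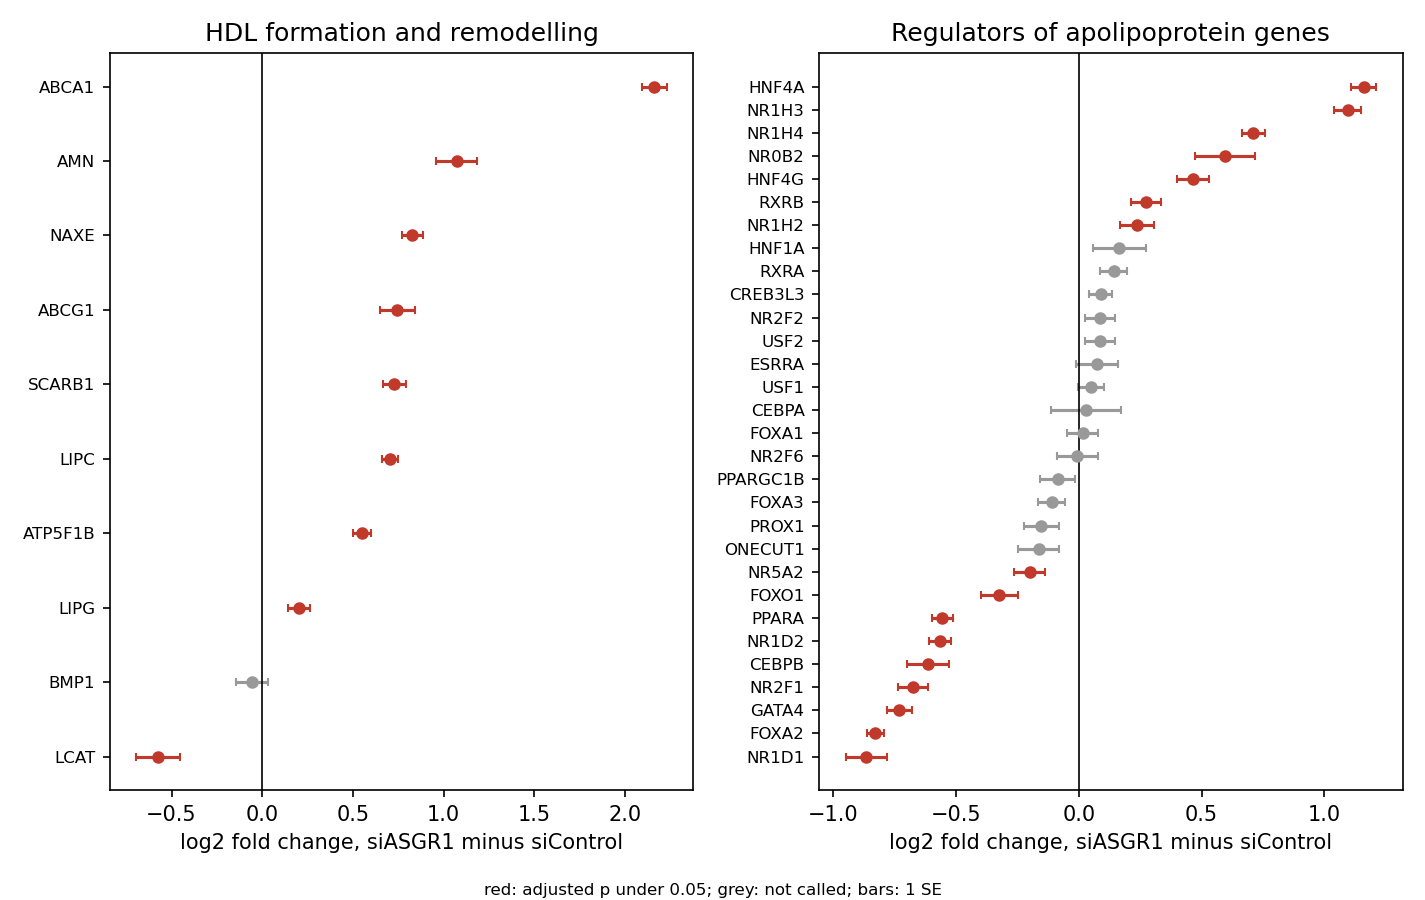
Log2 fold change (siASGR1 minus siControl, of FPKM + 1) with 1 SE for the tested genes of HDL formation and remodelling (left) and for regulators of apolipoprotein genes (right); red points passed an adjusted p of 0.05. On the left 8 of 10 genes rose and LCAT fell, and on the right 7 rose and 9 fell.

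The genes around the 2 apolipoprotein clusters included some that rose and some that fell, to be read beside the 20.9% higher and 40.4% lower of all tested genes. Of 10 tested neighbours on chromosome 11, 2 rose and 2 fell (2 and 1 with median-of-ratios scaling): APOA4, described above, rose, PAFAH1B2 rose 1.17-fold, TAGLN was 2.51-fold lower and SIK3 1.25-fold lower. PAFAH1B2 was not called without siASGR1 replicate 1 or siControl replicate 2, and SIK3 not without siControl replicate 1 or 2 (limma adjusted p 0.0515 to 0.0577). SIK3 was also not called with median-of-ratios scaling (limma adjusted p = 0.123) or quantile normalization (0.111). Of 6 tested on chromosome 19, 1 rose and 3 fell (2 and 1 with median-of-ratios scaling). TOMM40, which encodes the import channel of the outer mitochondrial membrane and lies beside APOE, had 57.8 to 62.9 FPKM in siASGR1 and 32.4 to 36.2 FPKM in siControl. RELB was 1.56-fold, BCAM 1.16-fold and CLASRP 1.18-fold lower, and CLASRP was not called without siASGR1 replicate 1 or 3 or siControl replicate 1 (limma adjusted p 0.0843 to 0.118), nor under any of the 3 other scalings (0.136 to 0.399) or with no filter (0.0945). BCAM was not called with median-of-ratios (limma adjusted p = 0.325) or upper-quartile scaling (0.0542), and RELB not with quantile normalization (0.147). Of 14 tested genes near the single genes, 6 rose and 5 fell. TOMM40L, beside APOA2, rose 1.81-fold and TIMELESS 1.52-fold, whereas PAN2 was 1.51-fold and PRKCA 1.26-fold lower.

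The tested genes whose log2 values lay nearest to the median profile of the 9 over 6 libraries were ECI1, RBP4, H2AX, FKBP4 and NOP56, at root-mean-square distances of 0.025 to 0.049 log2 units. ECI1, an enzyme of fatty acid oxidation, had 30.2, 33.6 and 31.4 FPKM in siASGR1, against 15.7, 14.7 and 14.4 FPKM in siControl. RBP4, the plasma carrier of retinol, had 591.5 to 632.2 FPKM in siASGR1 and 284.2 to 315.5 FPKM in siControl. With 2 groups, this likeness rests mostly on the size of the difference between them.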

How the data were processed

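RNA libraries of 6 Huh7 samples (3 siASGR1, 3 siControl) were grouped by their treatment labels. The authors deposited FPKM values rounded to 2 decimals in 1 table of the whole series and 1 file per library, per the file headers, although the table is named as raw counts. The submitters' processing notes name HISAT2 2.0.1, cutadapt 1.9.1, bcl2fastq 2.17.1.14 and the build hg19. No source used here gives the counting program or the annotation. Because FPKM scale with each library's total, a change in a few abundant genes shifts all others.

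From the FPKM, log2(FPKM + 1) was tested with limma 3.58.1 in R 4.3.3 (group only, prior with a trend in level) on genes reaching 1 FPKM in 3 or more of the 6 libraries; the fit was tested on simulated data. Depth was rebuilt from the steps between low values and GENCODE v29 exon lengths (97.0% to 97.7% of values whole within 0.15), for 52338 IDs. The depth chosen was the one that made this share highest. Symbols were found for 51996 IDs. Positions are those of GENCODE v29 (GRCh38), promoters those of RefSeq (GRCh38.p14). Pairs of libraries of 1 group differed beyond sampling noise (chi-square over degrees of freedom 2.49 to 5.19). Shares and ratios were compared with exact permutation tests. Tables and figures were made in Python 3.11.15 with matplotlib 3.10.9, scipy 1.17.1, pandas 2.3.3 and numpy 2.4.6.

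The 10 genes and the gene lists were chosen with earlier results of these data known. A few items of the lists are not reported here and were left out of their counts. Genes named are the 10, up to 4 called genes with the smallest p in each list, a few genes given as checks, genes that overlap the 10 and the 5 nearest profiles. Alternatives covered scaling, pseudocount, filters, prior, replicate block, source, rebuilt reads, threshold and leaving out each library.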

Additional observations from a re-analysis of the deposited data

How the results depend on the processing

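The 9 tested genes were called higher under all 17 alternatives to the fit, and their median log2 fold change lay between 0.99 (without siASGR1 replicate 2) and 1.20 (median-of-ratios scaling). The highest limma adjusted p of any of them was 0.0149, for APOH without siASGR1 replicate 1. Of these alternatives, the single-library source holds the same values for the 9 genes, and the stricter threshold of 0.01 reuses the main fit. With FPKM of at least 5 required, 3382 genes were called lower, against 5480, since fewer genes were tested. Without APOA1 in the sum, the gain in APOA2's share was 14.1 points, against 11.3, and the differences were -10.3 (-5.20) for APOE, -1.51 (-0.73) for APOC3, -0.837 (-0.027) for APOC1, -0.888 (-0.486) for APOH, -0.546 (-0.197) for PLTP and 0.096 (0.185) for APOM, as shares of a smaller sum. With 1 library left out, the difference in the share of APOC1 (-0.027 points) lay between -0.301 without siControl replicate 2 and 0.276 without siControl replicate 3 (0.122 without siASGR1 replicate 3). That of APOC2 (-0.010 points) lay between -0.0322 without siControl replicate 3 and 0.0143 without siControl replicate 1. With quantile normalization the log2 difference changed sign for APOA1-AS (0.0067, against -0.20 in the main fit) and for FN1 (-0.037, against 0.16). With median-of-ratios scaling it changed sign for VIL1, an intestinal epithelium marker (0.0063, against -0.125). The cause was not tested. With FPKM of at least 5, genes called lower were 2 (4 in the main fit) of the other apolipoproteins, 0 (1) of HDL formation and 1 (3) of the receptors, which was also 1 with quantile normalization. At this depth APOF could not be told from 0 in siASGR1. The same-numbered libraries did not deviate together (correlations -0.019, 0.002 and 0.013), and no siASGR1 library correlated best with its own number. With a replicate block 2761 genes were called higher and 5303 lower, with the 9 genes among the higher, and CLASRP was not called (limma adjusted p = 0.0757). Of all gene list counts under these alternatives, 429 stayed within 1.5 times the main count and 47 did not. Tests for raw counts, listed as alternatives, were left out because the tables hold FPKM.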
